A study of Mus musculus with 10 samples.

Results

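The genes described here are the 81 motile cilia genes that a rule on gene names found among the 55487 genes of the mouse ovary RNA-seq table. The rule took the names of axonemal dynein heavy chains (Dnah), dynein intermediate chains (Dnaic), dynein assembly factors (Dnaaf), cilia and flagella associated proteins (Cfap), radial spoke proteins (Rsph), tektins (Tekt), nexin-dynein regulatory complex subunits (Drc), Spag6, Spag16 and Spag17, Ccdc39, Ccdc40, Hydin and Foxj1. The rule read names and no measured value, but it was chosen with earlier results of these data known. Of the 81 genes, 59 passed the filter on low counts and were tested. Spag17os, an opposite-strand RNA of Spag17, had no count, and 3 genes, Spag17os, Rsph6a and Cfap97d1, had 3 counts or fewer in every ovary. The 22 genes that were not tested are described by their levels and counts alone, so the tested members are not the whole set.

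Ovaries came from 3 groups of female C57BL/6J mice. The Control group held 4 ovaries of mice that were 8 weeks old, and the Aged group held 3 ovaries of mice labelled 11 months old. Both groups received saline. The Aged+CF group held 3 ovaries of mice labelled 11 months old that were given CEFFE, a cell-free protein extract of fat tissue, at 200 μL of 3 μg/μL through the tail vein. All 10 ovaries were collected 48 h after 10 IU of PMSG, a gonadotropin that drives follicle growth. Each ovary is called by its group and the number in its label, and values below follow the order Control 31, 32, 33 and 34, Aged 31, 33 and 34, and Aged+CF 30, 32 and 34. The libraries held 15761789 to 21318254 counts. Levels are given as CPM, counts scaled to a common library size with TMM factors, and 3 counts corresponded to at most 0.212 CPM. The study calls its replicates biological, but the labels do not say whether each ovary came from its own animal, so p-values measure the spread between these ovaries.

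Motile cilia beat by sliding their outer microtubule doublets with axonemal dyneins. Outer and inner dynein arms supply the force, cytoplasmic assembly factors build the arms, radial spokes and the central pair regulate them, and the nexin-dynein regulatory complex links the doublets. In the female reproductive tract, multiciliated cells line the oviduct, and Foxj1 is the forkhead transcription factor that switches on the motile cilia programme in such cells. Most ovarian cells carry at most a primary cilium, which lacks dynein arms, radial spokes and a central pair.

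Control 33 and Aged 34 stood apart from the other ovaries in these genes. Both were above all 8 other ovaries in 59 of the 81 genes (72.8%), an order found in 3.44% of the 36618 genes that had any count. The summed level of the 81 genes was 884.8 CPM in Control 33 and 734.1 CPM in Aged 34, against 374.7 to 439.7 CPM in the other 8 ovaries. The number of members called in each comparison is therefore given with and without these libraries, as are some fold changes. In whole-ovary RNA, more cells of a type and more RNA per cell cannot be told apart.

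**Figure D1:**
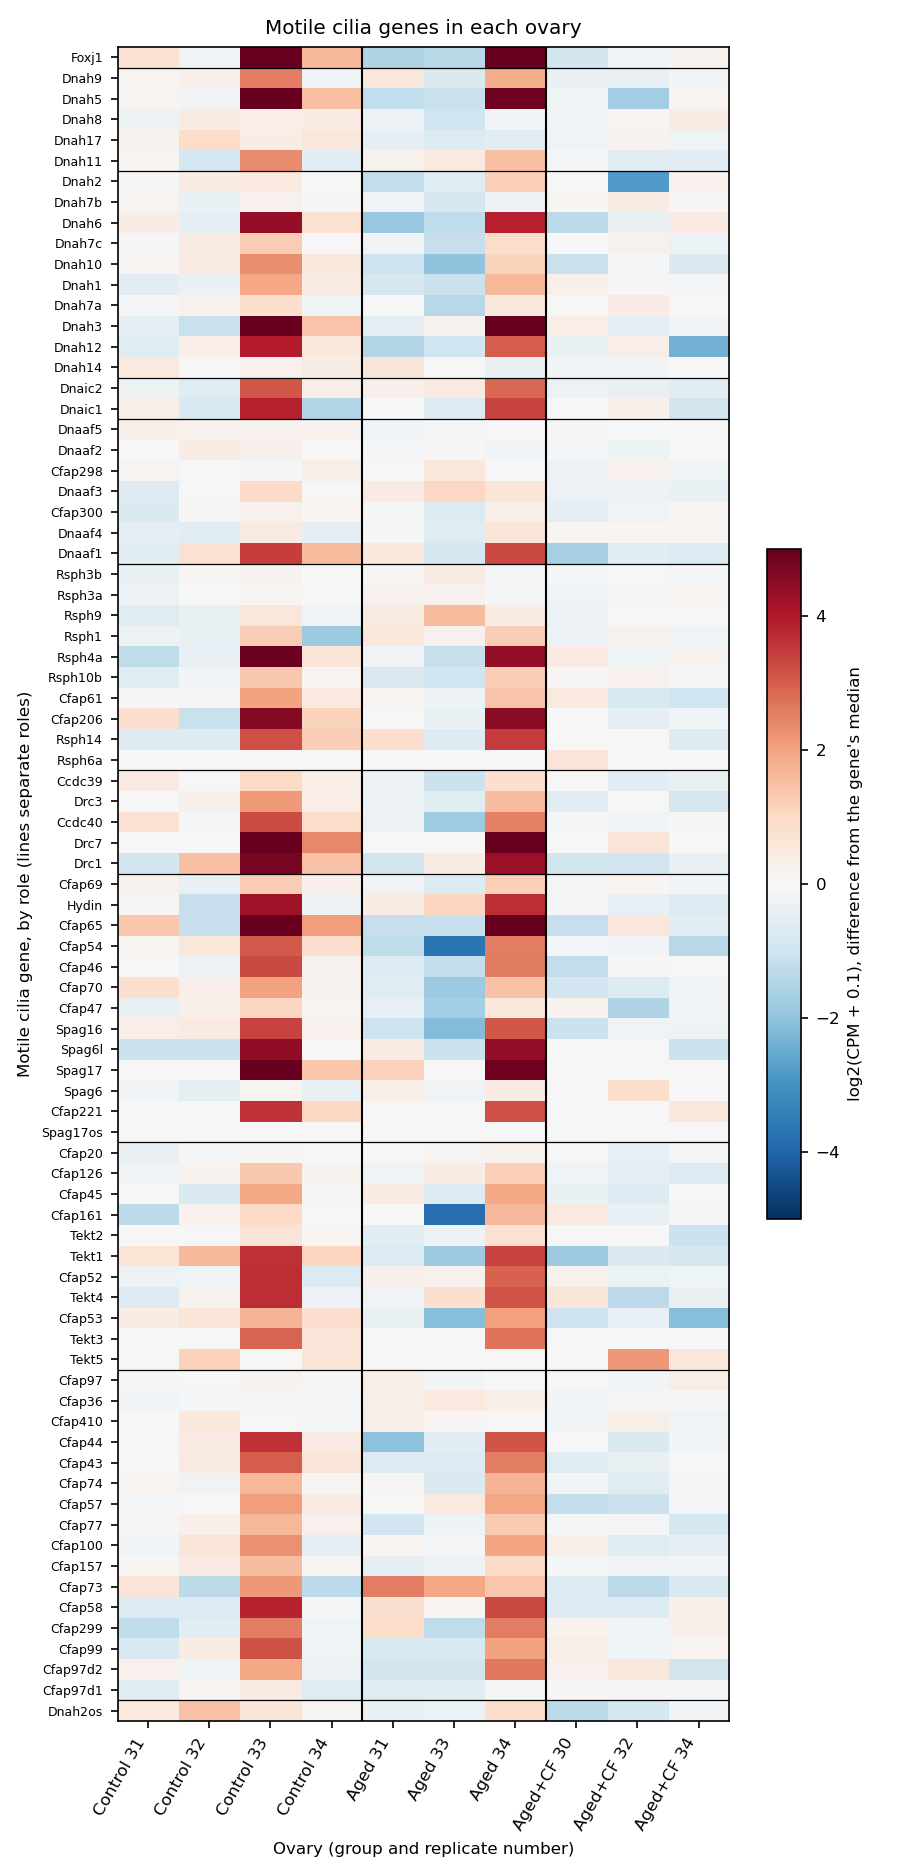
Level of each of the 81 motile cilia genes (rows, grouped by role) in each of the 10 ovaries (columns), as the difference of log2(CPM + 0.1) from the gene's median over the ovaries, red above and blue below, with colours saturating at 5. The columns of Control 33 and Aged 34 are red in most rows, and the pale rows across all columns are genes such as Dnaaf5, Rsph3b and Cfap20.

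The promoters of these genes were read for 2 motifs tied to cilia genes, the RFX motif GTTGCCA and the forkhead core GTAAACA, each on both strands (TGGCAAC and TGTTTAC on the other). RefSeq windows of 300 bases, from 250 before to 50 after the gene start on GRCm38.p6, were found for 66 of the 81 genes. The RFX motif was in a window of 15 of the 66 genes (22.7%) and of 1358 of all 27025 genes with a window (5.02%). The forkhead core was in 4 of 66 genes (6.06%), Cfap20, Cfap43, Dnah17 and Tekt3, and in 4.05% of all genes. The RFX motif did not separate the genes by their order of ovaries, as it was in 11 of 48 genes (22.9%) that were highest in Control 33 and Aged 34 and in 4 of 18 other members (22.2%). These shares are descriptions of letters in a window, and binding was not measured. Foxj1 itself had no matched window.

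The windows below were picked from those that hold a motif match, so they are not typical of the members. Of them, 4 belong to genes that were highest in Control 33 and Aged 34 (Hydin, Drc1, Tekt1 and Cfap161). Only 11 of 48 such genes held the RFX motif. The last, Cfap20, belongs to a gene at a similar level in all ovaries. All are written 5′ to 3′ on the strand of the gene, with motif matches in capitals. The windows are at chr8:110266727-110267026 on the plus strand for Hydin, chr5:30281143-30281442 on the plus strand for Drc1, chr11:72361833-72362132 on the minus strand for Tekt1, chr7:83794790-83795089 on the minus strand for Cfap161 and chr8:95434820-95435119 on the minus strand for Cfap20.
Hydin: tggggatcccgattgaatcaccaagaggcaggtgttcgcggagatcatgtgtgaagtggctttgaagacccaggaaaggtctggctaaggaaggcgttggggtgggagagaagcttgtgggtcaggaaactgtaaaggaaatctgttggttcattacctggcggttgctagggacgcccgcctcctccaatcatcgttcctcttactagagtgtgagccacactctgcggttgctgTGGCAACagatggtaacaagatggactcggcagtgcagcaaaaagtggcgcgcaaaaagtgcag
Drc1: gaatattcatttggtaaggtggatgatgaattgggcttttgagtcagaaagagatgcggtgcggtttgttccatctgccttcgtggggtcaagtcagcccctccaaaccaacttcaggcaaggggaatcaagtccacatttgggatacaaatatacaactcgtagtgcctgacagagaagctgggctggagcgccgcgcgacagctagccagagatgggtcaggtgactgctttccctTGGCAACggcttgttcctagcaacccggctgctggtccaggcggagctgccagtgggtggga
Tekt1: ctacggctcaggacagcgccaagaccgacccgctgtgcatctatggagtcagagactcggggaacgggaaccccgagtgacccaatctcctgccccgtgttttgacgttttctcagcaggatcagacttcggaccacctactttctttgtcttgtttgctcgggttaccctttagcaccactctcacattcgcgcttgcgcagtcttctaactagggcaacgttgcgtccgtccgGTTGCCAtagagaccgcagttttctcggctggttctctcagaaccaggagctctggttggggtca
Cfap161: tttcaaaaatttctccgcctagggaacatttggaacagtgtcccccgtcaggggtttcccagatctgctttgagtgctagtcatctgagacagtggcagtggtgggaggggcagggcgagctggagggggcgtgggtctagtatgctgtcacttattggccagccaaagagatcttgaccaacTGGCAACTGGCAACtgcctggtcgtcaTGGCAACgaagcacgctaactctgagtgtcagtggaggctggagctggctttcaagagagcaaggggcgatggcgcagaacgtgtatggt
Cfap20: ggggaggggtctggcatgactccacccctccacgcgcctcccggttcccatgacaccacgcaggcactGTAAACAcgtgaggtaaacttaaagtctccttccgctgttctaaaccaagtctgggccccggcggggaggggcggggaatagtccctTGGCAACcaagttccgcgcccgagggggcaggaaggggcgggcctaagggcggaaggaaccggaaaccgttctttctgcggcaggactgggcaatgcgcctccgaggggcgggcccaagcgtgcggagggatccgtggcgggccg
The RFX motif began 14 bases before the start of Hydin, 12 bases before that of Drc1 and 15 bases before that of Tekt1. Cfap161 held 3 copies, which began 67, 60 and 40 bases before its start. In Cfap20, the RFX motif began 95 bases and a forkhead core 182 bases before the start. Only the window of Cfap20 held both motifs, and the matches did not overlap there.

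Foxj1 (ENSMUSG00000034227, chr11:116330704-116335399, GRCm38, minus strand) was among the genes with the widest separation. Its levels were 0.934, 0.436, 36.7 and 1.91 CPM in Control ovaries, 0.119, 0.141 and 32.3 in Aged ovaries, and 0.229, 0.4595 and 0.609 in Aged+CF ovaries. The counts behind these levels were 16, 7, 724 and 36 counts in Control ovaries, 2, 2 and 586 in Aged ovaries, and 4, 8 and 13 in Aged+CF ovaries. Control 33 and Aged 34 differed little from each other, with Aged 34 at 0.880 times the level of Control 33, and the highest of the other 8 ovaries was Control 34. Within the remaining ovaries, the Aged pair at 2 counts each lay below every Control and every Aged+CF ovary.

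Outer arm heavy chains are the motor subunits that set beat frequency. Dnah5, whose loss stops outer arm assembly, had levels of 0.467, 0.374, 46.2 and 1.38 CPM in Control ovaries, 0.119, 0.141 and 14.6 in Aged ovaries, and 0.344, 0.0574 and 0.469 in Aged+CF ovaries. Dnah9, the heavy chain of the distal outer arm, was at 5.02, 5.55, 27.5 and 3.98 CPM in Control ovaries, 6.8, 2.75 and 16.98 in Aged ovaries, and 3.56, 3.45 and 4.17 in Aged+CF ovaries. Both genes were highest in Control 33 and next in Aged 34, with Dnah5 in Aged 34 at 0.316 times its level in Control 33. Dnah11 was also highest in these ovaries. Dnah8 and Dnah17 are the outer arm heavy chains known from sperm flagella. Dnah8 was at 4.73, 7.79, 7.15 and 7.32 CPM in Control ovaries, 4.59, 2.82 and 5.07 in Aged ovaries, and 4.93, 6.32 and 7.5 in Aged+CF ovaries, with neither ovary standing out. Dnah17 was at 4.14, 6.92, 4.72 and 5.35 CPM in Control ovaries, 2.62, 2.26 and 2.43 in Aged ovaries, and 3.15, 4.13 and 3.09 in Aged+CF ovaries, so that all Control ovaries lay above all Aged ovaries, and Aged 34 lay between Aged 33 and Aged 31.

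Among the 10 inner arm heavy chains, 8 were highest in Control 33 and Aged 34. Dnah6 was at 1.52, 0.8105, 25.9 and 2.01 CPM in Control ovaries, 0.239, 0.423 and 18.1 in Aged ovaries, and 0.401, 0.862 and 1.55 in Aged+CF ovaries. Both ovaries were again far above the rest. Dnah2, the inner arm chain with the highest mean CPM, was at 23.7, 32.4, 35.9 and 25.2 CPM in Control ovaries, 10.7, 16.6 and 57.5 in Aged ovaries, and 25.3, 3.504 and 29.2 in Aged+CF ovaries. Aged 34 and Control 33 were on top here too, but 7 of the other ovaries were above 10 CPM and Aged+CF 32 was the low one. Dnah2os, an RNA annotated on the opposite strand inside Dnah2, was at 1.63, 3.304, 1.77 and 1.27 CPM in Control ovaries, 0.895, 0.917 and 2.21 in Aged ovaries, and 0.401, 0.574 and 1.03 in Aged+CF ovaries, and counts of the gene and its opposite-strand partner may be mixed because the strand setting of the counting is not given in the sources used here. Dnah7b was at 21.7, 15.8, 23.4 and 19.4 CPM in Control ovaries, 17.7, 11.01 and 16.8 in Aged ovaries, and 21.4, 26.1 and 20.5 in Aged+CF ovaries, a range within which Control 33 and Aged 34 did not stand out. Dnah7a, Dnah7b and Dnah7c are close paralogs whose reads may have been split between them. The levels of Dnah3 reached 13.4 CPM in Control 33 and 8.82 CPM in Aged 34, against 0.477 CPM or less elsewhere.

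Both dynein intermediate chains followed the same order of ovaries. Dnaic2 was at 1.05, 0.8105, 11.7 and 1.64 CPM in Control ovaries, 1.55, 1.76 and 9.87 in Aged ovaries, and 1.03, 0.976 and 0.844 in Aged+CF ovaries. Dnaic1 was at 0.233, 0.0623, 3.96 and 0 CPM in Control ovaries, 0.179, 0.0706 and 2.76 in Aged ovaries, and 0.172, 0.2297 and 0.0469 in Aged+CF ovaries, and it had no count in Control 34. In each gene the lower of Control 33 and Aged 34 was above every other ovary.

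The dynein assembly factors work in the cytoplasm and were mostly even across the ovaries. Dnaaf5 was at 44.6, 43.7, 42.1 and 42.8 CPM in Control ovaries, 32.5, 35.1 and 37.3 in Aged ovaries, and 36.4, 37.7 and 37.3 in Aged+CF ovaries, with all Control ovaries above all others. Dnaaf2 was at 20.5, 26.5, 24.9 and 20.8 CPM in Control ovaries, 19.2, 21.3 and 18.6 in Aged ovaries, and 19.4, 17.3 and 21.1 in Aged+CF ovaries. Cfap298, another assembly factor, was at 16.6, 15.3, 14.4 and 18.6 CPM in Control ovaries, 14.9, 22.6 and 15.1 in Aged ovaries, and 12.3, 17.6 and 13.2 in Aged+CF ovaries. Control 33 and Aged 34 lay within the range of the other ovaries in all 3 of these genes. Of the 7 assembly factors, Cfap300, Dnaaf4 and Dnaaf1 were highest in Control 33 and Aged 34, and of these Dnaaf1 reached 3.35 and 3.03 CPM against 0.848 CPM or less elsewhere. Dnaaf3 was highest in Aged 33, at 10.3 CPM, and it overlaps Tnni3 on the same strand, so its counts are uncertain.

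Radial spokes carry signals from the central pair to the dynein arms. The paralogs Rsph3a and Rsph3b, whose reads may be split between them, were the highest of this class. Rsph3b was at 29.3, 38.5, 41.3 and 35.8 CPM in Control ovaries, 37.6, 47.5 and 34.9 in Aged ovaries, and 33.8, 37.4 and 34.6 in Aged+CF ovaries. Rsph3a was at 29.1, 36.03, 36.8 and 34.6 CPM in Control ovaries, 39.4, 40.5 and 33.5 in Aged ovaries, and 31.5, 34.1 and 37.5 in Aged+CF ovaries. Their levels in Control 33 and Aged 34 lay within the range of the other 8 ovaries. Rsph9, a spoke head protein, was at 3.62, 4.43, 8.27 and 4.88 CPM in Control ovaries, 7.75, 17.1 and 7.33 in Aged ovaries, and 4.59, 5.69 and 5.48 in Aged+CF ovaries, with Aged 33 the highest ovary. Rsph9 overlaps Mrps18a on the opposite strand. Rsph4a, another spoke head protein, was at 11.5 CPM in Control 33, 7.89 CPM in Aged 34 and 0.477 CPM or less elsewhere. Of the 10 genes of the class, 6 were highest in Control 33 and Aged 34. Rsph6a, known from testis, had a single count in 1 ovary.

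All 5 genes of the nexin-dynein regulatory complex and the axonemal ruler were highest in Control 33 and Aged 34. Ccdc39, which with Ccdc40 sets the spacing of the axonemal repeat, was at 6.95, 5.17, 10.6 and 6.68 CPM in Control ovaries, 4.35, 2.47 and 9.43 in Aged ovaries, and 5.33, 3.62 and 4.08 in Aged+CF ovaries. Ccdc40 was at 2.04, 1.12, 12.6 and 2.33 CPM in Control ovaries, 0.954, 0.282 and 7.39 in Aged ovaries, and 1.15, 1.09 and 1.27 in Aged+CF ovaries. The partners thus differed in how far the other 8 ovaries lay below, Ccdc39 being the more even. Drc3 was at 2.101, 2.49, 9.43 and 2.65 CPM in Control ovaries, 1.67, 1.34 and 6.23 in Aged ovaries, and 1.43, 2.07 and 1.12 in Aged+CF ovaries. Drc1 and Drc7 each reached 4.92 CPM in Control 33 and had no count in 4 or more ovaries.

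The central pair projections hold Hydin, a very large protein whose loss leaves cilia with an abnormal beat. Hydin (ENSMUSG00000059854, chr8:110266977-110610253, GRCm38, plus strand) was at 0.992, 0.374, 19.8 and 0.795 CPM in Control ovaries, 1.25, 2.12 and 13.4 in Aged ovaries, and 0.917, 0.689 and 0.562 in Aged+CF ovaries. Outside Control 33 and Aged 34, no ovary was above 2.12 CPM. Cfap65 was at 0.467, 0, 19.1 and 0.848 CPM in Control ovaries, 0, 0 and 13.7 in Aged ovaries, and 0, 0.2297 and 0.0469 in Aged+CF ovaries, the largest ratio of the highest ovary to the median of any member with a median above 0, at 138.2. Cfap69 was at 5.19, 3.55, 11.3 and 5.51 CPM in Control ovaries, 4.06, 2.82 and 10.8 in Aged ovaries, and 4.3, 4.997 and 4.27 in Aged+CF ovaries, a narrower range with the same 2 ovaries on top. Of the 13 genes of the class, 11 were highest in these ovaries, the exceptions being Spag6 and the count-free Spag17os. Spag6 and Spag6l are paralogs, and they differed, as Spag6l was at 4.46 CPM in Control 33, 4.30 CPM in Aged 34 and 0.179 CPM or less elsewhere, whereas Spag6 was highest in Aged+CF 32 at 1.26 CPM.

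Proteins of the doublet lumen and inner junction stabilise the microtubule doublets. Cfap20, the inner junction protein that also occurs outside motile cilia, was at 35.5, 41.7, 45.8 and 44.4 CPM in Control ovaries, 44.3, 48.5 and 49.7 in Aged ovaries, and 45.01, 33.4 and 42.8 in Aged+CF ovaries, its highest ovary at 1.12 times its median. Cfap126 was at 2.801, 3.62, 8.27 and 3.605 CPM in Control ovaries, 2.74, 4.16 and 7.44 in Aged ovaries, and 2.69, 2.24 and 1.92 in Aged+CF ovaries. Cfap45 was at 1.401, 0.8105, 5.68 and 1.48 CPM in Control ovaries, 1.91, 0.847 and 5.68 in Aged ovaries, and 1.09, 0.862 and 1.41 in Aged+CF ovaries. Control 33 and Aged 34 were level to 3 digits in this gene. Of the 11 genes, 9 were highest in these ovaries. Tekt1 reached 4.36 and 3.58 CPM there against 0.998 CPM or less elsewhere, and Tekt5, known from testis, had no count in either.

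Among the 16 remaining Cfap genes, 11 were highest in Control 33 and Aged 34, and the 3 with the highest mean level were not among them. Cfap97 was at 36.3, 37.8, 42.1 and 39.6 CPM in Control ovaries, 47, 34.6 and 37.5 in Aged ovaries, and 37.3, 34.2 and 45.9 in Aged+CF ovaries. Cfap36, which binds a small GTPase of cilia, was at 24.5, 25.6, 27.6 and 25.98 CPM in Control ovaries, 32.1, 38.1 and 32.4 in Aged ovaries, and 24.5, 28.03 and 25.6 in Aged+CF ovaries. Cfap410 was at 16.6, 23.8, 16.1 and 15.4 CPM in Control ovaries, 20.1, 17.9 and 16.4 in Aged ovaries, and 14.4, 20.1 and 14.2 in Aged+CF ovaries. In these 3 genes Control 33 and Aged 34 lay within the range of the other 8 ovaries. Cfap44 reached 17.5 and 12.4 CPM in Control 33 and Aged 34 against 1.75 CPM or less elsewhere. Cfap73 differed from both patterns, with its highest levels in Aged 31 at 1.37 CPM and in Control 33 at 1.01 CPM.

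**Figure D2:**
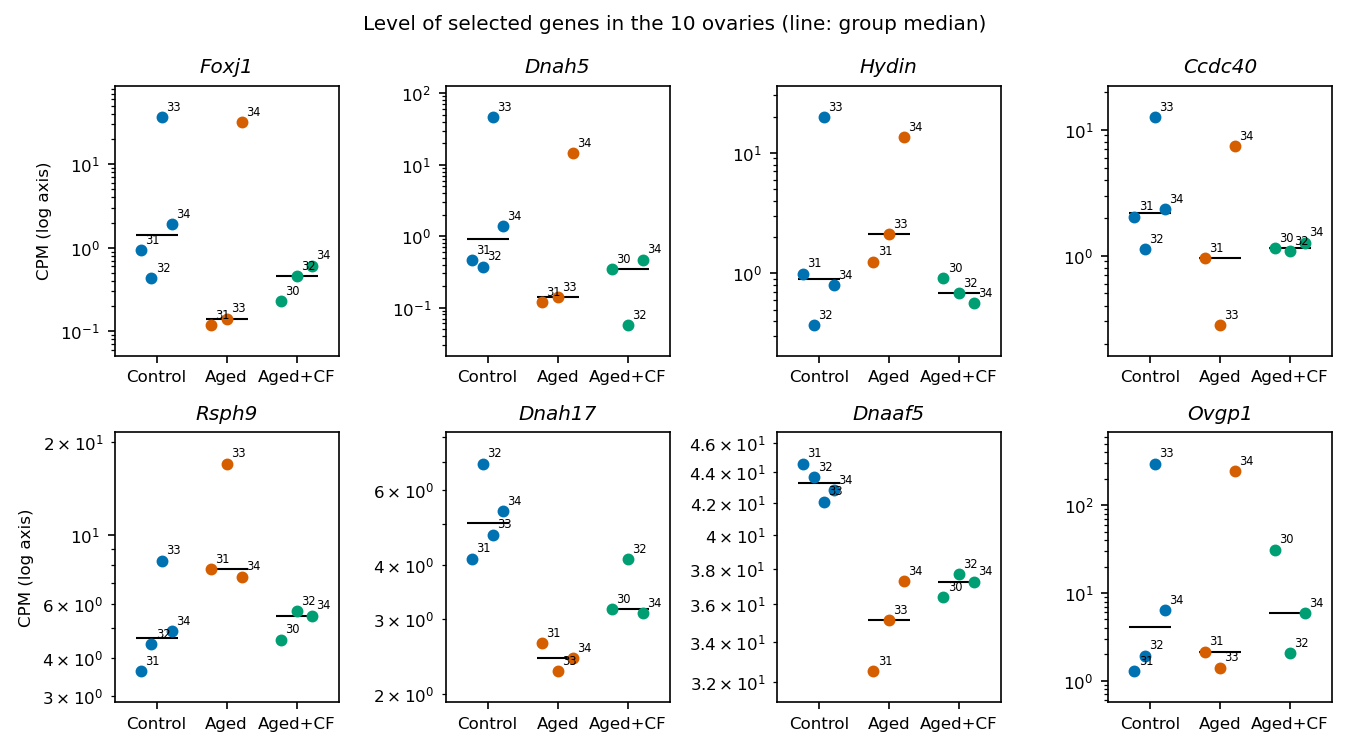
CPM of 7 motile cilia genes and of Ovgp1 in each ovary (log axes, which differ between panels), coloured by group, labelled with the ovary's number and with a line at the group median. Control 33 and Aged 34 sit above all other ovaries in Foxj1, Dnah5, Hydin, Ccdc40 and Ovgp1, but not in Rsph9, Dnah17 or Dnaaf5.

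The members differed in level as well as in evenness. Levels between genes were compared per length as FPKM, which scales reads by gene length and library size. The median FPKM over the 10 ovaries was 1 or more in 15 genes, led by Rsph3b at 8.73, Dnaaf5 at 8.55 and Cfap36 at 7.67 FPKM. In these 15 genes the highest ovary was 1.12 to 3.06 times the median CPM, and 3 of the 15 were highest in Control 33 and Aged 34. The other 66 genes had a median FPKM under 1, and 56 of them were highest in these ovaries. Foxj1 had a median of 0.204 FPKM, with 14.7 FPKM in Control 33 and 12.3 FPKM in Aged 34. Dnah5 had a median of 0.0272 FPKM and 3.10 FPKM in Control 33. Over the 74 genes with a median above 0, the highest ovary was under 2 times the median in 19 genes, 2 to 5 times in 22, 5 to 20 times in 19 and 20 times or more in 14. A gene with a low median has few counts in most ovaries, so its ratio is set by 1 or a few libraries. In 7 genes, Cfap221, Cfap58, Cfap97d2, Cfap99, Spag17, Spag6l and Tekt3, the other 8 ovaries had 3 counts or fewer each while Control 33 and Aged 34 each had more.

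**Figure D3:**
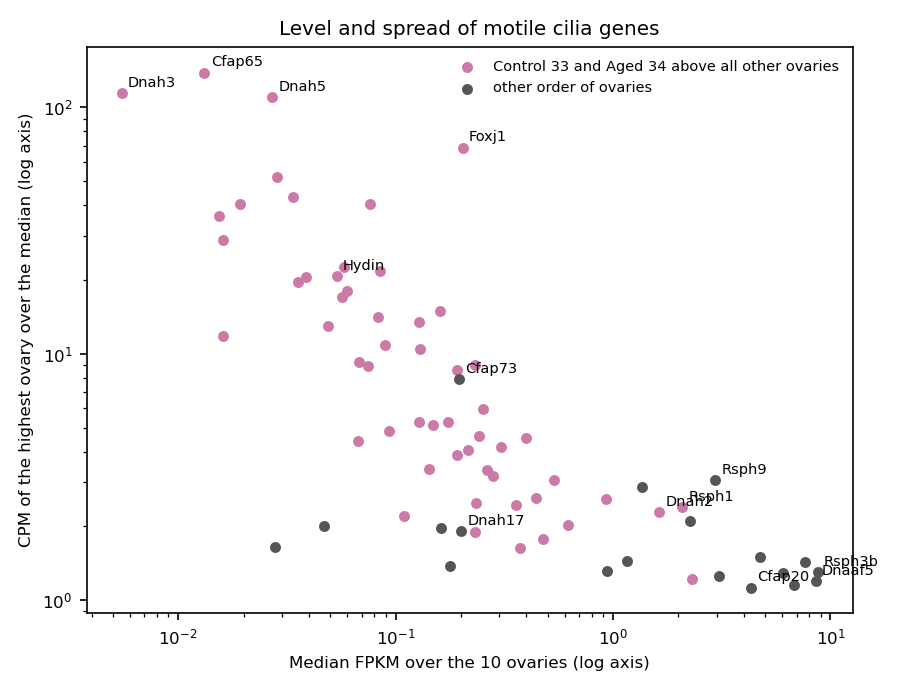
Median FPKM over the 10 ovaries (log axis) against the CPM of the highest ovary divided by the median CPM (log axis), 1 point per motile cilia gene with a median above 0. Pink points are genes in which Control 33 and Aged 34 were above all other ovaries; the genes with a median FPKM of 1 or more lie at ratios of 1.12 to 3.06, and Cfap65, Dnah3 and Dnah5 reach ratios over 100.

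The share of members was larger among genes with a wider gap. Of the 1259 genes with Control 33 and Aged 34 above all other ovaries, 4.69% were members. Where the lower of Control 33 and Aged 34 had to be at least 5 times the highest other ovary (taken as 0.212 CPM where it was below that), 117 genes of the table qualified, 0.32% of those with counts, and 22 of them were members. These 22 were 27.2% of the members and 18.8% of the 117 genes. At 10 times, 9 of 36 genes were members (25%). In the 22 members, the level in Aged 34 was 0.316 to 1.21 times that in Control 33, with a median of 0.699, and it was lower in Aged 34 in 21 of them. The size of the excess therefore differed from gene to gene between these ovaries. Within the Control group, Control 33 was the highest ovary in 51 of the 59 tested members (86.4%), against 22% of all tested genes. Within the Aged group, Aged 34 was the highest in 46 of 59 (78.0%), against 37.6% of tested genes. In the Aged+CF group, the highest ovary was Aged+CF 30 in 27.1%, Aged+CF 32 in 40.7% and Aged+CF 34 in 32.2% of the tested members, so none stood apart.

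Some markers of the oviduct, but not all, were highest in the same ovaries as most of the motile cilia genes. Ovgp1, the glycoprotein secreted by oviduct epithelium, had 22, 31, 5871 and 120 counts in Control ovaries, 36, 20 and 4450 in Aged ovaries, and 545, 36 and 125 in Aged+CF ovaries. Its level was 297.7 CPM in Control 33 and 245.4 CPM in Aged 34, against 31.2 CPM in Aged+CF 30 and 6.36 CPM or less in the other 7 ovaries. Aged+CF 30 was thus next in Ovgp1 after these ovaries but had 4 counts of Foxj1. Ovgp1 was 8.11 times Foxj1 in CPM in Control 33 and 7.59 times in Aged 34, close to each other, and 136.2 times in Aged+CF 30. It was 3.33 times Foxj1 in Control 34 and 9.615 times in Aged+CF 34, so a ratio of this size was not particular to Control 33 and Aged 34. Pax8, a transcription factor of the Müllerian epithelium, had 12, 5, 49 and 9 counts in Control ovaries, 7, 0 and 83 in Aged ovaries, and 12, 9 and 10 in Aged+CF ovaries, and was highest in the same ovaries. Wnt7a, the remaining defining marker, had 5, 9, 4 and 7 counts in Control ovaries, 1, 0 and 3 in Aged ovaries, and 1, 1 and 2 in Aged+CF ovaries, and was not. The summed level of these 3 defining markers was 2.28 to 300.4 CPM in Control, 1.41 to 250.1 CPM in Aged and 2.64 to 31.99 CPM in Aged+CF. In the longer list of oviduct and Müllerian epithelium, 7 of 16 genes were highest in both ovaries, an order found in 3.44% of all genes with counts. Emx2, Epcam, Krt7, Krt8, Krt19 and Muc16 were among those that were not. The sum of this list ran from 138.3 to 621.6 CPM in Control, 77.7 to 672.3 CPM in Aged and 182.1 to 349 CPM in Aged+CF. Ovgp1 alone held 297.7 of the 621.6 CPM in Control 33 and 245.4 of the 672.3 CPM in Aged 34. Krt7, Krt19 and Muc16 of this list are also in the list of the ovarian surface epithelium, so the lists are not separate. The part of oviduct cells in the motile cilia levels was not tested.

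Other marker lists were read in the same way. Of 9 genes of the ovarian surface epithelium, 1 was highest in both ovaries. The sum of that list was 151.8 to 284.7 CPM in Control, 38.03 to 443.2 CPM in Aged and 195 to 397.9 CPM in Aged+CF, with Aged 33 the low ovary. Of 6 smooth muscle genes, 5 were highest in both, an order found in 3.44% of all genes with counts. Des, the muscle intermediate filament, had 2545 counts in Control 33 and 6003 in Aged 34 against 575 to 1968 elsewhere. The sum of the list was 2596 CPM in Aged 34, but Control 33 at 2012 CPM was little above Control 34 at 1932 CPM. Of the uterine markers, Hoxa10 had 66 counts in Aged 34 and 2 to 29 elsewhere, Hoxa11 had 9 counts in Aged 34 and none elsewhere, and Foxa2 had 37 and 29 counts in Control 33 and Aged 34 and 5 or fewer elsewhere. Prss28 had 2 counts in Aged 34 only, and Prss29 had none. The 6 spermatid genes summed to at most 0.623 CPM in any ovary. Of the airway markers, Bpifa1 had 1 count in all, Scgb1a1 had 1 to 32 counts per ovary, and Sftpc had 49 to 102. The ovary itself was well marked by Foxl2, with 4340 to 7901 counts in every library, whereas 13 of the 16 oocyte genes were lowest in Aged 34, where Zp3 had 17 counts and Amh of granulosa cells 59. The oocyte list summed to 543.9 to 727.2 CPM in Control, 70.7 to 185.1 CPM in Aged and 250.4 to 365.5 CPM in Aged+CF. None of the 16 oocyte genes was highest in both Control 33 and Aged 34. The part of these cell types was not tested either.

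**Figure D4:**
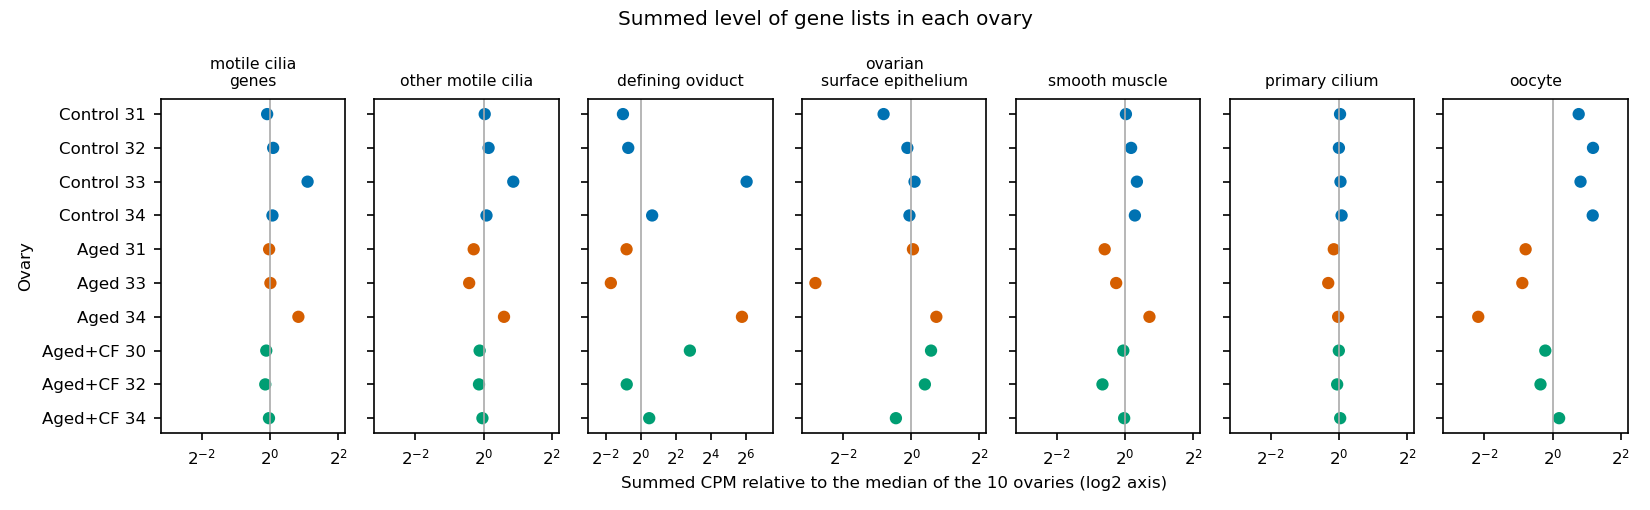
Summed CPM of 7 gene lists in each ovary, relative to the median of the 10 ovaries (log2 axis, wider for the defining oviduct markers). Control 33 and Aged 34 are the highest ovaries in the panels of motile cilia genes, other motile cilia, defining oviduct and smooth muscle, and the primary cilium panel is nearly flat.

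The other genes of the cilia pathway were taken from lists that do not overlap the 81. Among 34 further motile cilia genes, 26 were highest in Control 33 and Aged 34. Sntn, a protein of the ciliary tip, had 0, 0, 73 and 3 counts in Control ovaries, 0, 0 and 82 in Aged ovaries, and 0, 0 and 1 in Aged+CF ovaries. Dynlrb2, a dynein light chain, had 0, 0, 111 and 2 counts in Control ovaries, 0, 0 and 63 in Aged ovaries, and 0, 0 and 1 in Aged+CF ovaries. Among 12 genes that control multiciliation, 4 were highest in both ovaries, namely Gmnc, Myb, Trp73 and Rfx2, and Mcidas had 2 counts in all. Gmnc, which starts the multiciliated cell fate, had 1, 6, 21 and 3 counts in Control ovaries, 1, 0 and 37 in Aged ovaries, and 7, 0 and 4 in Aged+CF ovaries. Among 40 genes of the primary cilium, 1 was highest in both ovaries, and their sum was 1882 to 1987 CPM in Control, 1515 to 1853 CPM in Aged and 1816 to 1931 CPM in Aged+CF. The order with Control 33 and Aged 34 on top was thus held by most of the further motile cilia genes, while 1 of 40 primary cilium genes is near the 3.44% of all genes with counts.

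The comparison of Aged with Control asks what differs with age in the ovary. In edgeR's quasi-likelihood F test over all 10 ovaries, with Benjamini-Hochberg adjustment over the 18956 tested genes, 1 of the 59 tested members was called at an adjusted p under 0.05 and a fold of at least 1.5, against 11.1% of all tested genes. That member was Dnah17, which was lower in Aged, as were 6.06% of all tested genes. Its level was 5.28 ± 1.20 CPM in Control (SD, n = 4) and 2.44 ± 0.184 CPM in Aged (SD, n = 3). The log2 fold change was -1.11 (SE 0.23), with an edgeR adjusted p of 0.0147. All 3 Aged ovaries lay below all 4 Control ovaries. At an unadjusted p under 0.05, 3 members passed, Dnah17, Dnah8 and Rsph9, against 18.2% of all tested genes. Dnah17 lies at chr11:118021723-118130634 on GRCm38 and overlaps Pgs1 on the opposite strand. Its call did not rest on Control 33 or Aged 34, as its log2 fold change was -1.12 (edgeR adjusted p = 0.0313) without them. The oocyte genes moved the same way, with 13 of 16 lower in Aged, and their part in the Dnah17 result was not tested.

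Dnaaf5 and Cfap36 passed the adjusted p but not the fold in the same comparison. Dnaaf5 was at 43.3 ± 1.08 CPM in Control and 35.0 ± 2.39 CPM in Aged, and its log2 fold change was -0.31 (SE 0.08, edgeR adjusted p = 0.0322). Cfap36 differed by a log2 fold change of 0.40 (SE 0.10, edgeR adjusted p = 0.0289), higher in Aged. Without Control 33 and Aged 34, Dnaaf5 no longer passed, with a log2 fold change of -0.33 (SE 0.10, edgeR adjusted p = 0.055), and that of Cfap36 was 0.51 (SE 0.13, edgeR adjusted p = 0.0282). Both are genes that were even across ovaries. In contrast, Foxj1 was at 10.0 ± 17.8 CPM in Control and 10.9 ± 18.6 CPM in Aged, with a log2 fold change of 0.12 (SE 1.65, edgeR adjusted p = 0.972), so the standard error exceeded the difference many times over. Hydin had a log2 fold change of 0.03 (SE 1.24, edgeR adjusted p = 0.991). Over the 59 members, 21 fold changes were above and 38 below 0, with a median log2 fold change of -0.16 against -0.001 for all tested genes.

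Without Control 33 and Aged 34, the comparison rested on 3 Control and 2 Aged ovaries and 55 members were tested. These libraries were left out after their levels of these very genes had been seen. Then 8 of the 55 members were called, against 14.4% of all tested genes, a share of 14.5%. Of these 5 were lower, against 6.54% of all tested genes, and 3 were higher, against 7.82%. At an unadjusted p, 18 passed, against 22.1% of all tested genes. Foxj1 was lower in Aged by a log2 fold change of -2.99 (SE 0.84, edgeR adjusted p = 0.0416), on counts of 16, 7 and 36 against 2 and 2. Tekt1 at -3.27, Cfap54 at -2.88, Dnah10 at -1.86 and Dnah17 at -1.12 were also lower on the log2 scale. Rsph9 at 1.56, Dnaaf3 at 1.0 and Cfap73 at 3.48 were higher. The Cfap73 value rested on few counts, 5, 0 and 0 in Control ovaries against 23 and 12 in Aged ovaries. Rsph9 was highest in Aged 33, at 17.1 CPM. With Aged 33 as the only ovary left out, its log2 fold change was 0.533 (edgeR adjusted p = 0.281). Leaving out Aged 34 alone gave 6 calls, namely Cfap54, Cfap70, Dnah10, Dnah17, Rsph9 and Tekt1, and leaving out Control 33 alone gave 2, Dnah17 and Rsph9. The share of all tested genes called in these fits is not given here, so these counts are not read as a result about the members. The median log2 fold change of the members was -0.36 without both libraries. Hydin went the other way from Foxj1, with a log2 fold change of 1.24 (SE 0.46, edgeR adjusted p = 0.0968). The 2 Aged ovaries that remained included Aged 33, the ovary with the lowest surface epithelium markers, where Muc16 had 1 count and Epcam 16.

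The comparison of Aged+CF with Aged asks what differs after CEFFE. No member was called in edgeR's test, against 0.00528% of all tested genes, which is a single gene. DESeq2's Wald test called none either. It gave no p-value for Foxj1 and no adjusted p for Cfap73, so it did not cover all 59 members. At an unadjusted p under 0.05 and the same fold, 7 of the 59 members passed, against 7.96% of all tested genes. They were Dnaaf1, Cfap126, Dnaaf3, Tekt1, Cfap57, Rsph9 and Cfap73, all lower in Aged+CF, where 4.05% of all tested genes passed in that direction. Of these, Dnaaf1, Cfap126 and Tekt1 were highest in Control 33 and Aged 34. Without these libraries, Rsph9, Dnaaf3 and Cfap73 had log2 fold changes of -1.25, -1.11 and -4.73 (edgeR adjusted p = 0.0798, 0.0738 and 0.0657). The values of the others without these libraries are not given here. Foxj1 was at 10.9 ± 18.6 CPM in Aged and 0.433 ± 0.191 CPM in Aged+CF (SD, n = 3 each), a log2 fold change of -4.61 (SE 2.25, edgeR adjusted p = 0.337). Aged 34 alone lay above the Aged+CF ovaries, and Aged 31 and Aged 33 lay below all of them. Over the 59 members, 7 fold changes were above and 52 below 0, with a median log2 fold change of -0.81 against -0.02 for all tested genes. Without Control 33 and Aged 34, no member of 55 was called in edgeR's test, against 1.51% of all tested genes, and 9 passed at an unadjusted p, against 12.1%. The median of the members was then 0.125 on the log2 scale, 32 above and 23 below 0, and Foxj1 had a log2 fold change of 1.69 (SE 0.90, edgeR adjusted p = 0.301).

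Aged+CF and Control were compared with the same test. No member was called in edgeR's test, against 0.179% of all tested genes. DESeq2's Wald test called none, but it gave no p-value for Foxj1. At an unadjusted p, 8 of the 59 members passed, against 7.69% of all tested genes, and all 8 were lower in Aged+CF: Dnah17, Cfap53, Dnah2os, Dnaaf1, Cfap126, Tekt1, Dnah5 and Cfap57. In that direction, 4.36% of all tested genes passed. Without Control 33 and Aged 34, Dnah17 had a log2 fold change of -0.634 (edgeR adjusted p = 0.217). The values of the others without these libraries are not given here. Dnah17 was at 3.46 ± 0.585 CPM in Aged+CF (SD, n = 3), between Aged and Control, with a log2 fold change of -0.61 from Control (SE 0.23, edgeR adjusted p = 0.271). Its log2 fold change from Aged was 0.50 (SE 0.24, edgeR adjusted p = 0.337). Foxj1 had a log2 fold change of -4.49 from Control (SE 2.19, edgeR adjusted p = 0.380). The median log2 fold change of the members was -0.86 against -0.03 for all tested genes, and -0.25 without Control 33 and Aged 34, when none of 55 was called against 0.832% of all tested genes and 7 passed at an unadjusted p, against 10.3%. This comparison shares its samples with the other comparisons, so their values are not independent.

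**Figure D5:**
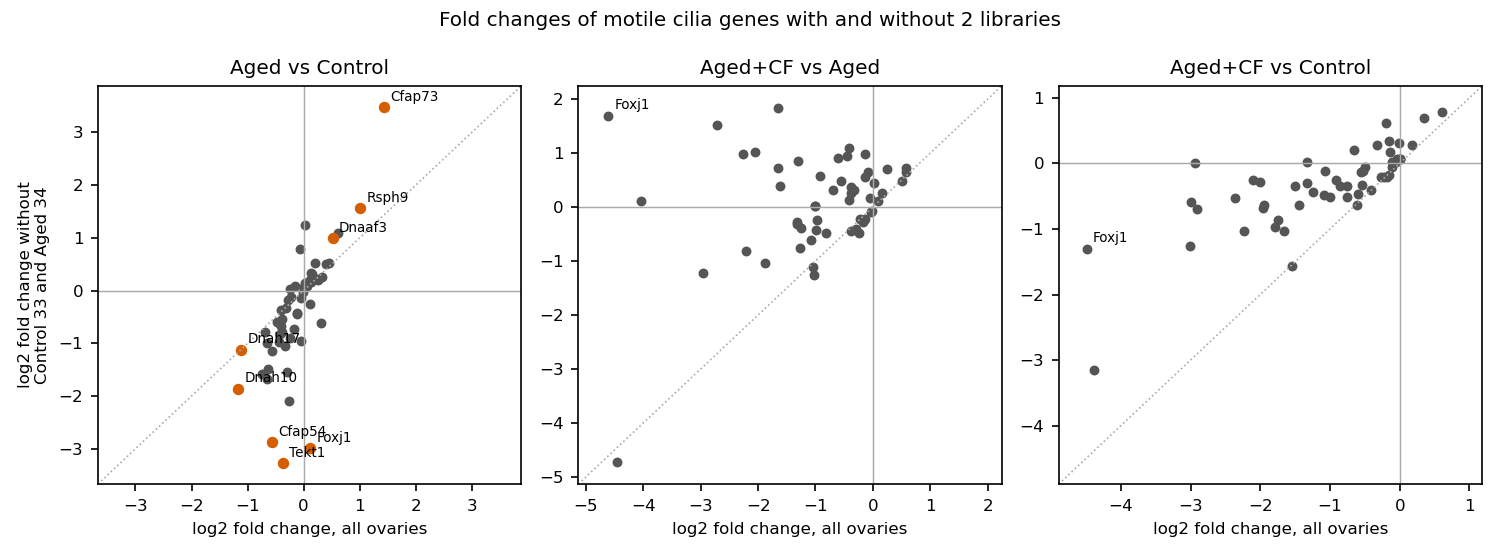
Log2 fold change of each motile cilia gene with all 10 ovaries (horizontal) and without Control 33 and Aged 34 (vertical), 1 point per gene tested in both fits, for the 3 comparisons. Orange points were called without these libraries; 8 were called in Aged vs Control and none in the other comparisons, and Foxj1 moves from 0.12 to -2.99 and from -4.61 to 1.69 in the first 2 panels.

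The other pathway lists were read against the 11.1% of all tested genes called in Aged vs Control. Among the 24 tested further motile cilia genes, 1 was higher and 2 were lower in Aged than in Control in edgeR's test. Ropn1l was higher by a log2 fold change of 1.02 (edgeR adjusted p = 0.0294), and Mlf1 and Efhc2 were lower by log2 fold changes of -1.66 and -1.52 (edgeR adjusted p = 0.00706 and 0.0289). Of the 9 tested multiciliation genes, Ccno, a cyclin-like protein of centriole amplification, was lower by a log2 fold change of -2.40 (edgeR adjusted p = 0.0329). Its counts were 396, 428, 428 and 466 counts in Control ovaries, 94, 110 and 7 in Aged ovaries, and 173, 145 and 276 in Aged+CF ovaries, lowest in Aged 34, as were those of the oocyte genes Zp3 and Gdf9. Of the 40 primary cilium genes, Kif7 and Kif17 were lower by log2 fold changes of -0.77 and -1.0 (edgeR adjusted p = 0.0224 and 0.0126). The shares called, 3 of 24, 1 of 9 and 2 of 40, are near that background or below it. None of these lists had a call in the other comparisons with all 10 ovaries.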

How the data were processed

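Whole-ovary RNA-seq of 10 ovaries was analysed. The deposited table holds raw read counts per gene made by the authors, and FPKM values made by the authors, who scaled reads by gene length and library size. Per the submitters' processing notes, TopHat and Cufflinks 2.1.1 were used with GRCm38.p4. The counting tool, the annotation and the strand setting are not given in the sources used here.

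From the deposited counts, edgeR 4.0.16 (R 4.3.3) filtered genes with filterByExpr, scaled libraries by TMM and fitted 1 mean per group over all ovaries with the quasi-likelihood F test. P-values were Benjamini-Hochberg adjusted over all tested genes. A gene was called at an adjusted p under 0.05 and a fold of 1.5 or more. Library totals were 15761789 to 21318254 counts, and CPM used TMM-scaled totals of 14174786 to 21333824. The test was run on simulated counts with known changes, the same relative spread in every gene and no outlying library. That check does not cover genes in which single ovaries stand far above the rest. FPKM served to compare levels between genes. Coordinates are from GENCODE M21 (GRCm38), which held all 81 members, and promoter windows from RefSeq (GRCm38.p6).

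Named members were Foxj1, Hydin, the 3 highest by mean CPM of each role class and every member called with all ovaries; genes named outside this rule were chosen after their values were seen. The members and lists were chosen with earlier results of these data known. Alternatives were no filter, DESeq2 1.42.0 size factors or Wald test, only the groups compared, a replicate block, unadjusted p, each ovary left out in turn, and, chosen after seeing the data, both Control 33 and Aged 34 left out. No pair of libraries within a group agreed within sampling noise.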

Additional observations from a re-analysis of the deposited data

Results flagged for a closer look

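In the Control group, 1 ovary lay far from the other 3 in 13 named members and in their sum, by the gap to its nearest neighbour as a share of the group's range, which was above Dixon's critical value for 4 samples. Control 33 was the high ovary in 12 of these members. The gap was 0.959 of the range for Foxj1, 0.933 for Dnah9, 0.978 for Dnah5, 0.952 for Dnah6, 0.924 for Dnaic2 and 0.941 for Dnaic1. It was 0.925 for Drc3, 0.894 for Ccdc40, 0.968 for Hydin, 0.956 for Cfap65, 0.851 for Cfap126 and 0.862 for Cfap45. For the summed CPM of all 81 members it was 0.898, with Control 33 high. In Cfap410 the high ovary was Control 32, with a gap of 0.862. Chance alone gives such a gap in about 1 in 20 groups. Among all tested genes the share was 6.38%, and among the 59 tested members it was 45.8%, or 27 genes. Control 33 was the high ovary in 26 of these members and in 1.52% of all tested genes. The Aged and Aged+CF groups, with 3 ovaries each, were not examined this way.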

How the results depend on the processing

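The number of members called in Aged vs Control was 1 with all ovaries and depended on the libraries. It was 2 with DESeq2's Wald test, which gave no p-value for Foxj1 or Cfap54, and 3 at an unadjusted p (18.2% of all tested genes). It was 8 without both Control 33 and Aged 34 (14.4% of all tested genes). It ran from 1 to 6 when each ovary was left out in turn, where Aged 34 gave the 6 and Control 33 gave 2. For the Wald test and for single ovaries left out, the share of all tested genes is not given here, so those counts have no background. In both comparisons of Aged+CF, 0 members were called and 0 to 0 with each ovary left out in turn. At an unadjusted p, 7 passed against Aged (7.96% of all tested genes) and 8 against Control (7.69% of all tested genes). Without a low-count filter, with DESeq2 size factors or with only the groups compared, the counts were 1, 0 and 0. With the replicate number as a block, 0 members were called in Aged vs Control, and Dnah17 had a log2 fold change of -0.96 (edgeR adjusted p = 0.0919). The labels do not say that a number joins ovaries of different groups. Deviations of same-numbered ovaries correlated at -0.169 to 0.187, and those of differently numbered ovaries at -0.191 to 0.157. With so few ovaries, these correlations cannot settle whether a number joins them. The log2 fold change of Foxj1 in Aged vs Control turned from 0.12 to -0.105 with the block and -2.99 without both libraries, and ran from -6.18 to 3.30 with 1 ovary left out. Leaving out 1 ovary in turn, that of Tekt1 ran from -4.50 to 0.852 and that of Cfap54 from -4.06 to 0.608. In Aged+CF vs Aged, Foxj1 ran from -5.19 to 1.70 and was 1.69 without both libraries, and Dnah1 ran from -0.816 to 1.09 and was 1.09 without both. The cause of these changes was not tested. The members tested ranged from 50 to 80 across these settings. Foxj1, Dnah5 and Dnah3 had 3 counts or fewer in some ovaries, which limits precision there, and 3 or 4 ovaries per group limit the tests.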
